A study of Mus musculus with 8 samples.

Results

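Cytokine receptors carry the signals that keep blood progenitors alive and direct them into the erythroid, granulocytic or monocytic line. The 9 genes described here, like the gene lists set beside them, were chosen with earlier results of these data known. The 9 were picked by symbol and are 9 of the 47729 genes in the deposited table. They encode 3 kinds of receptor: single-chain cytokine receptors for erythropoietin (Epor) and granulocyte colony-stimulating factor (Csf3r), the shared signalling chains and 1 ligand-binding chain of the interleukin-6 and GM-CSF families (Il6st, Csf2rb, Csf2rb2, Csf2ra), and receptor tyrosine kinases (Kit, Flt3, Csf1r). The first 2 kinds have no kinase of their own and signal through bound JAK kinases to STAT transcription factors, while the third kind phosphorylates its targets directly. BCR-ABL1, the kinase that defines chronic myeloid leukaemia, is known to activate much of the same STAT5 signalling without a cytokine.

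RNA was sequenced from leukaemic bone marrow cells of 4 mice given a Fubp1 shRNA and 4 mice given a scrambled shRNA, 1 library per mouse. FUBP1 binds single-stranded DNA and RNA and is best known for its control of Myc transcription. Both groups were C57BL/6, and in both the donor marrow came from mice treated with 5-fluorouracil and received BCR-ABL1 with a red reporter from a retroviral vector and the shRNA with the Venus reporter from a lentiviral one. Recipients in both groups were irradiated with 900 cGy, and the cells sequenced were live, lineage-negative and positive for both reporters. The sources used here give neither the ages of the mice nor the shRNA sequence. RNA went into a stranded total RNA kit, with 2 ribosomal depletion kits named but not tied to libraries. The model therefore expresses BCR-ABL1 from a viral promoter in transplanted marrow, and knockdown cells kept a large part of their Fubp1 transcripts. Fubp1 measured 281, 228, 220 and 239 CPM (the gene's counts scaled to library size, after TMM adjustment of that size) in knockdown replicates 1 to 4, against 296, 284, 291 and 396 CPM in scrambled replicates 1 to 4. Every knockdown library lay below every scrambled one, and the log2 fold change was -0.39 by edgeR's quasi-likelihood test, with an adjusted p of 0.0604, which missed the threshold of 0.05; the authors' deposited table gives an adjusted p of 0.0157 for it.

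Libraries held 24042761 to 44761356 counts in the knockdown and 22465303 to 38495006 in the scrambled group. On the first principal component, which held 61.1% of the variance, knockdown replicate 3 scored 29.0, inside the scrambled range of 13.7 to 57.3, and its 3 group mates scored -81.2 to -34.1. That mouse was singled out by this score and not by its Fubp1 level, which at 220 CPM was the lowest of all libraries. Results that rest on it are given with and without it. The score came from these same expression values, so leaving that mouse out tends to raise calls and gives them no independent support. Markers of mature cells, which a lineage gate removes, ranged from near 0 to moderate. The 10 mature neutrophil genes summed to 1.02 to 43.3 CPM in the knockdown and 1.71 to 8.18 CPM in the scrambled libraries, and the 8 B cell genes to at most 4.07 and 1.09 CPM, with 2 of them at 0 in every library. The 10 monocyte and macrophage genes summed to 16.2 to 189 CPM in the knockdown and 8.16 to 20.02 CPM in the scrambled libraries. The 8 T and NK cell genes summed to 4.92 to 98.8 CPM in the knockdown and 3.30 to 9.56 CPM in the scrambled libraries, nearly all of it Nkg7 and Lck, with Cd3e at 0 throughout. Erythroid genes were abundant, with 12 of them summing to 7109 to 11333 CPM in the knockdown and 9009 to 10051 CPM in the scrambled libraries.

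All 9 receptor genes passed the filter on low counts. By edgeR's quasi-likelihood test with Benjamini-Hochberg adjustment over all genes, Il6st rose and Epor fell, and the other 7 did not pass 0.05. Among all 13462 tested genes 8.02% were called higher and 7.29% lower, 15.3% in all, so 2 calls in 9 is close to the background. The groups of 4 were free of overlap for the same 2 members, Il6st with the knockdown higher (9.54% of all tested genes) and Epor with it lower (11.1%), 20.7% in both directions. The fitted change was above 0 in 7 of the 9, with a median of 1.48, where the median of all tested genes was 0.0012. Most of the 7 were high in only some of the knockdown mice. With knockdown replicate 3 left out, 4 members were called higher (Il6st, Csf2ra, Csf1r and Csf3r), where 14.1% of all genes tested were called higher, and Epor was called lower beside 10.6%. The library left out there had the lowest Fubp1 level, 220 CPM. Knockdown replicate 1, highest or next highest for each of these 4 receptors, had the highest Fubp1 level of its group, 281 CPM. Whether receptor levels follow that of Fubp1 was not tested. DESeq2 called the same 4 higher with all libraries, beside 12.6% of its genes, and limma-voom called none higher, beside 6.23%. Both tools called Epor lower, beside 9.53% of genes with DESeq2 and 6.84% with limma-voom.

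**Figure D1:**
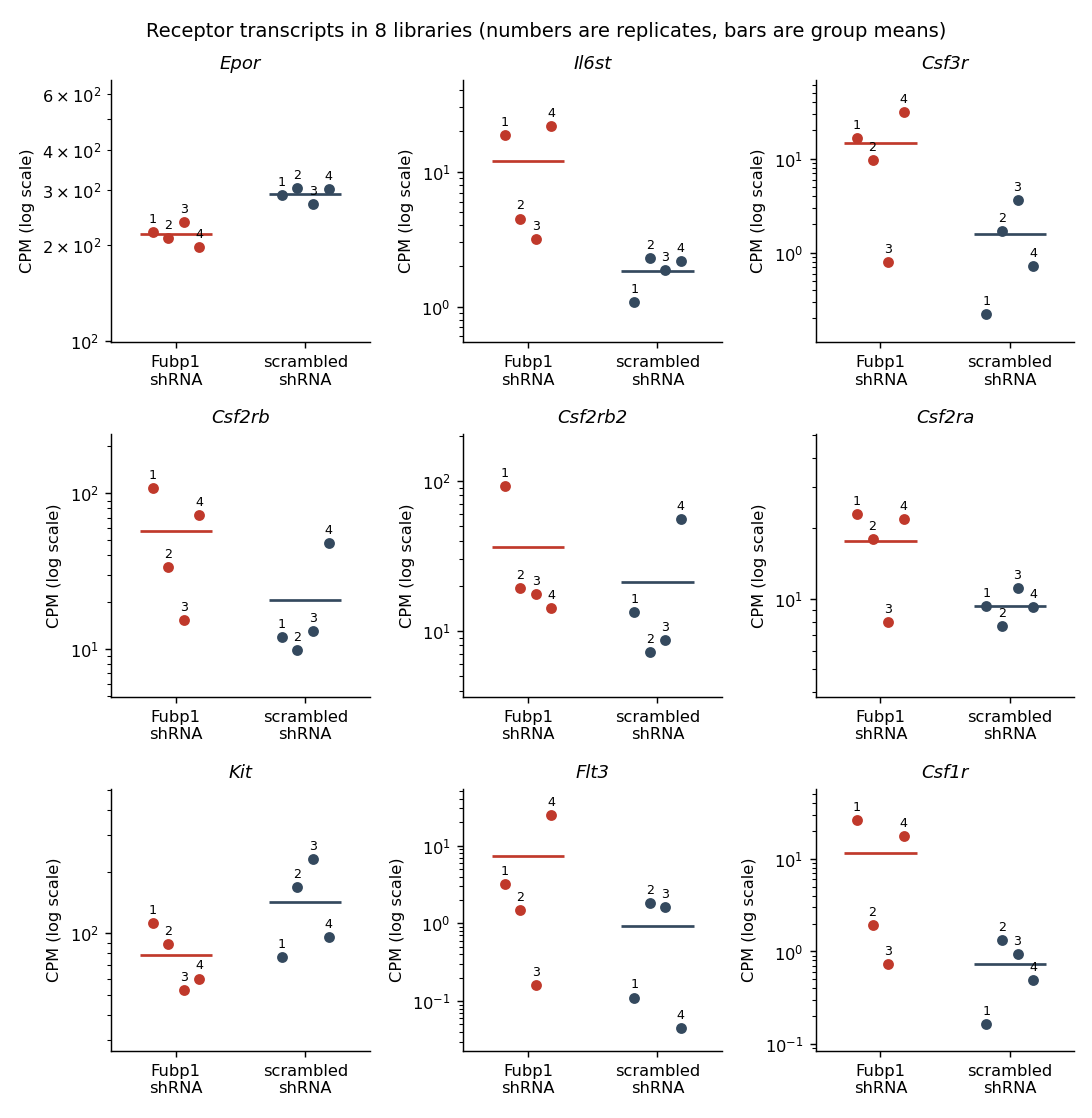
CPM (log scale) of the 9 receptor genes in each library, knockdown libraries on the left and scrambled libraries on the right of each panel, with the replicate number above each point and a bar at the group mean. The groups are apart for Epor and Il6st; for Csf3r, Csf2ra and Csf1r knockdown replicate 3 sits among the scrambled libraries.

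Levels of different genes were compared as CPM per kilobase of annotated exon. In knockdown libraries Epor came first at 109 ± 8.50 CPM per kb (SD, n = 4), and Kit second at 8.83 ± 3.08. In scrambled libraries Epor stood at 146 ± 7.31 CPM per kb and Kit at 16.01 ± 7.90. The gap between Epor and Kit exceeded the spread in both groups, since their ranges did not meet. Below Kit, the order in the knockdown libraries was Csf2rb, Csf2rb2, Csf2ra, Csf3r, Csf1r, Flt3 and Il6st, and each neighbouring pair overlapped. In the scrambled libraries it was Csf2rb2, Csf2ra, Csf2rb, Csf3r, Il6st, Flt3 and Csf1r. There the lowest Csf2rb library (1.36 CPM per kb) lay above the highest Csf3r library (1.01), while the other neighbours below Epor overlapped. The cells of both groups thus carried far more Epor transcript than that of any other member, and in the scrambled group the last 4 genes averaged under 0.5 CPM per kb.

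Epor encodes the erythropoietin receptor, which pairs with itself on erythroid progenitors and signals through JAK2. The gene (ENSMUSG00000006235) lies on chromosome 9 from 21958897 to 21963506 on the minus strand (GRCm38, GENCODE M21). It measured 221, 210, 237 and 197 CPM in knockdown replicates 1 to 4, against 288, 303, 271 and 300 CPM in scrambled replicates 1 to 4. Each knockdown library was below each scrambled one, including knockdown replicate 3. Epor fell by 0.42 on the log2 scale (SE 0.07), with an adjusted p of 0.00876 by edgeR's quasi-likelihood test. The call held with each library left out in turn, with an adjusted p between 0.00299 and 0.0330. The authors' deposited table gives a log2 fold change of -0.42 with a standard error of 0.08. In bulk RNA, fewer cells of a type and less RNA per cell cannot be told apart.

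The 250 bases before the Epor start were read from RefSeq (GRCm38.p6, chr9:21963577-21963826, minus strand, written 5′ to 3′). They are shown because Epor was the only member called lower, and capitals mark the match to the motif of the erythroid factor GATA1, which begins 54 bases before the start.
Epor: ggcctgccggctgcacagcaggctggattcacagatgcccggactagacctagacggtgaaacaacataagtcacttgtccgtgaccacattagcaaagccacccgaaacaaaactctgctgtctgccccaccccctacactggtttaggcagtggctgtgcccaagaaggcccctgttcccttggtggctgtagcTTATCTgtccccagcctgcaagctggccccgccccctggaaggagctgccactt
The motif was searched as AGATAA or AGATAG and, with T as its first base, TGATAA or TGATAG on both strands, and 26.5% of the 32851 RefSeq windows of this length hold it. Of the 7 members with a RefSeq window, Csf2rb2 had the same kind of match, 38 bases before its start, and Csf3r, Kit, Flt3, Il6st and Csf2ra had none.

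The genes whose profile over the 8 libraries was nearest to that of Epor, among 9286 candidates, were Klf1, Psmf1 and Nsf. Their root mean square differences from it on the centred log2 CPM scale were 0.045, 0.047 and 0.050. Klf1 encodes an erythroid transcription factor and averaged 369 ± 27.6 CPM in the knockdown and 507 ± 26.6 CPM in the scrambled libraries (SD, n = 4 each). Psmf1 encodes an inhibitor of the proteasome and Nsf a factor for vesicle fusion. All 3 fell, by 0.46, 0.40 and 0.42 on the log2 scale. They were chosen for closeness to the Epor profile in these same libraries, so a like fall follows from that choice. Among the 12 erythroid markers 4 fell (Car2, Ermap, Gata1 and Klf1) and 3 rose (Alas2, Hbb-bs and Hbb-bt), beside 7.29% and 8.02% of all tested genes. The summed level of the 12 overlapped between the groups. The part of these markers in the Epor difference was not tested.

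Il6st encodes gp130, the signalling chain that the receptors for interleukin-6, interleukin-11, leukaemia inhibitory factor and oncostatin M share. The gene (ENSMUSG00000021756) lies on chromosome 13 from 112464070 to 112510086 on the plus strand. It measured 18.7, 4.49, 3.17 and 21.8 CPM in knockdown replicates 1 to 4, against 1.08, 2.28, 1.87 and 2.16 CPM in scrambled replicates 1 to 4. All 4 knockdown libraries were higher, but replicates 1 and 4 stood well above replicates 2 and 3. Summed early granulocyte markers had the same order within the knockdown group, from 86.7 CPM in replicate 3 to 3609 CPM in replicate 4, against 35.9 to 333 CPM in the scrambled libraries. Monocyte and macrophage markers were also highest in knockdown replicates 1 and 4, at 189 and 156 CPM, and lowest in replicate 3, at 16.2 CPM, against 8.16 to 20.02 CPM in the scrambled libraries. Their part in the Il6st, Il6ra and Stat3 values was not tested. Il6st rose by 2.71 on the log2 scale (SE 0.66), with an adjusted p of 0.0331 by edgeR's quasi-likelihood test. That call held without knockdown replicate 2 or 3 and ended without each of the other 6 libraries in turn, with an adjusted p of 0.0610 to 0.0868 (0.0750 without knockdown replicate 1). The authors' deposited table gives a log2 fold change of 1.34 for it, where DESeq2, run here on the same counts, gave 2.70. The cause of that gap was not tested. Sptbn1, which encodes a spectrin, and Papss2, which encodes an enzyme of sulfate activation, had the nearest profiles over the 8 libraries. Their root mean square differences were 0.47 and 0.48 log2 units, larger than those of the Epor neighbours. This measure grows with a gene's own spread, and Il6st varied far more between libraries than Epor. Sptbn1 rose by 2.24 and Papss2 by 1.93, and each kept its call only without knockdown replicate 3 among the fits that left out a library (adjusted p up to 0.107). Both were chosen for closeness to the Il6st profile, so a like rise follows from that choice.

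The Il6st window is shown for comparison with that of Epor (RefSeq, GRCm38.p6, chr13:112463820-112464069, plus strand). No base is in capitals, since none of the 4 motifs searched was found in these letters.
Il6st: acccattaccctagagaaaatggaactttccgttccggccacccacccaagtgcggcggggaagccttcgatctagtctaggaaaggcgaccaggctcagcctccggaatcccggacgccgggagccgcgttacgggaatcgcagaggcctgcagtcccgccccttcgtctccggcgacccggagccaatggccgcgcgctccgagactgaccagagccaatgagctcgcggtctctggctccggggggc
Besides the GATA motif these were the STAT motif TTCNNNGAA (held by 7.0% of all windows), the PU.1 core GAGGAA (23.3%) and the E-box CACGTG (6.0%), each on both strands. Among the members with a window, Csf2rb2 held the STAT motif, none the E-box, and Csf3r, Kit, Csf2rb2 and Csf2ra the PU.1 core. G and C made up 66.0% of the Il6st window and 58.8% of the Epor window.

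Gp130 acts with partner chains that bind the ligand. Of the 6 partner genes listed, 4 were tested, 2 rose and none fell, beside 8.02% and 7.29% of all tested genes. At an unadjusted p under 0.05 and by DESeq2 2 were higher, by limma-voom 1, and none was lower by any of these. Il6ra, the interleukin-6 receptor alpha chain, measured 15.1, 5.65, 1.81 and 26.3 CPM in knockdown replicates 1 to 4, against 1.89, 1.63, 2.03 and 1.35 CPM in scrambled replicates 1 to 4. Like Il6st and the myeloid markers it was highest in knockdown replicates 1 and 4, but knockdown replicate 3 lay among the scrambled libraries. Il6ra rose by 2.82 (SE 0.73, adjusted p = 0.0386 by edgeR) and lost the call when any single library except knockdown replicate 3 was left out (adjusted p up to 0.103). Lifr, the leukaemia inhibitory factor receptor, was scarce and more even, at 1.66 ± 0.23 CPM in the knockdown and 0.71 ± 0.13 CPM in the scrambled libraries (SD, n = 4 each). It rose by 1.22 (SE 0.22, adjusted p = 0.0126) and lost the call only without scrambled replicate 3 (0.0507). Il11ra1 and Il27ra differed by 0.14 and 0.07, with adjusted p of 0.720 and 0.812. Osmr, the oncostatin M receptor, reached at most 0.056 CPM, and Cntfr had no read in any library.

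Ligand genes were mostly near 0: of 15 with a row in the data, edgeR tested 6 and called 0. At an unadjusted p under 0.05, 2 were higher and 1 lower, and DESeq2 and limma-voom called 1 higher each. Osm, which encodes oncostatin M, a ligand of gp130 and itself a STAT5 target, was the abundant one. It measured 106, 168, 191 and 92.1 CPM in knockdown replicates 1 to 4, against 94.4, 57.9, 52.2 and 81.6 CPM in scrambled replicates 1 to 4 (log2 fold change 0.96, SE 0.28, adjusted p = 0.0548 by edgeR). Knockdown replicates 2 and 3, the lower pair for Il6st, were the higher pair for Osm. The 8 immediate early and stress genes, which respond to cell handling, summed to 2252, 3996, 4554 and 1650 CPM in knockdown replicates 1 to 4, against 3231, 2313, 1371 and 1799 CPM in scrambled replicates 1 to 4. That sum put the knockdown libraries in the same order as Osm did, and both were highest in replicate 1 and lowest in replicate 3 of the scrambled group; its part in the Osm and Pim1 values was not tested. Of these 8 edgeR called 0, 1 was higher and 1 lower at an unadjusted p under 0.05, and DESeq2 and limma-voom called 0. Kitl, Csf2, Csf3, Il3 and Il5 stayed under 0.5 CPM in every library, and Epo had no read in any.

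**Figure D2:**
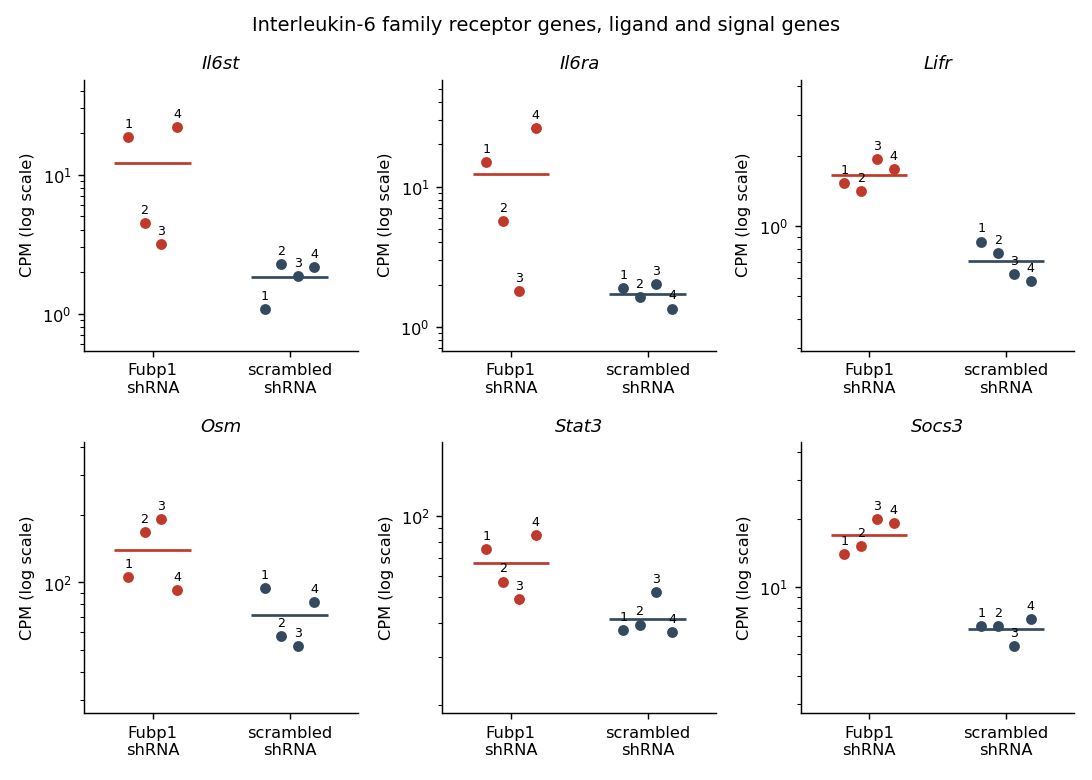
CPM (log scale) of Il6st, its partner genes Il6ra and Lifr, the ligand gene Osm, and Stat3 and Socs3 in each library, knockdown libraries left of scrambled ones, with replicate numbers and group means. Lifr and Socs3 separate the groups with little spread; Il6st and Il6ra are highest in knockdown replicates 1 and 4, and Osm in knockdown replicates 2 and 3.

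Of 12 JAK, STAT and related kinase genes 2 rose and 1 fell, beside 8.02% of all tested genes higher and 7.29% lower, and their median log2 fold change was -0.08. At an unadjusted p under 0.05, 2 were higher and 4 lower; DESeq2 called 2 each way and limma-voom 1 each way. Stat3, the main STAT of gp130, measured 75.5, 57.2, 49.1 and 85.2 CPM in knockdown replicates 1 to 4, against 37.9, 39.6, 52.1 and 37.1 CPM in scrambled replicates 1 to 4. It rose by 0.68 (SE 0.19, adjusted p = 0.0440 by edgeR), with the knockdown libraries in the order of their early granulocyte markers and replicate 3 below the highest scrambled library, and lost the call without any single library other than knockdown replicate 3 (adjusted p up to 0.118). Lyn, a SRC-family kinase active below several of these receptors, rose by 0.71 (SE 0.09, adjusted p = 0.00462) to 45.4 ± 4.81 CPM in the knockdown, against 27.6 ± 2.09 CPM in the scrambled libraries (SD, n = 4 each). Stat5a, a STAT that erythropoietin and GM-CSF activate, fell by 0.48 (SE 0.11, adjusted p = 0.0278 by edgeR). It averaged 95.7 ± 11.4 CPM in the knockdown, against 133 ± 17.3 CPM in the scrambled libraries. The other STAT5 gene, Stat5b, averaged 145 ± 12.5 CPM in the knockdown, against 172 ± 19.8 CPM in the scrambled libraries. Its groups overlapped (log2 fold change -0.25, adjusted p = 0.109 by edgeR). Lyn kept its call with every library left out and Stat5a in 3 of those 8 fits (adjusted p up to 0.0885). Jak2, the kinase bound by Epor and the beta chains, measured 105, 98.3, 123 and 129 CPM in knockdown replicates 1 to 4, against 149, 154, 163 and 118 CPM in scrambled replicates 1 to 4 (adjusted p = 0.0735). Jak1, which gp130 binds, had a log2 fold change of -0.25 (adjusted p = 0.109).

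Adaptors and brakes of receptor signalling were called higher in 4 of 22 tested genes and lower in none, beside 8.02% and 7.29% of all tested genes. At an unadjusted p under 0.05, 9 were higher; DESeq2 called 7 higher and limma-voom 3, and by none of these was any lower. The 4 were Socs3, which binds and blocks gp130 and Csf3r, the phosphatase gene Inpp5d, the adaptor gene Sh2b3, a brake on JAK2, and Dok2. Socs3 measured 13.98, 15.2, 20.02 and 19.2 CPM in knockdown replicates 1 to 4, against 6.66, 6.65, 5.43 and 7.15 CPM in scrambled replicates 1 to 4. It rose by 1.40 (SE 0.15, adjusted p = 0.00274 by edgeR), and no single library decided the call. Sh2b3 rose by 0.27 (SE 0.06) and Inpp5d by 0.41 (SE 0.09), with adjusted p of 0.0259 and 0.0241; the first lost the call without 5 and the second without 3 of the 8 libraries in turn (adjusted p up to 0.0917). Dok2 rose by 1.59 (SE 0.45, adjusted p = 0.0463) but kept the call only without knockdown replicate 3, where it lay at 2.79 CPM. Among genes known to respond to STAT3, 5 of 8 tested rose by edgeR and none fell, beside 8.02% and 7.29% of all tested genes: Socs3, Pim1, Bcl3, Fgl2 and Tnfrsf1a. At an unadjusted p under 0.05, 5 were higher; DESeq2 called 6 higher and limma-voom 3, and none was lower by any of these. This list was chosen with earlier results of these data known, so its share called is not independent of them. Several of the 5 also answer to STAT5 or NF-kB. Within the knockdown group Fgl2 and Tnfrsf1a had the order of the early granulocyte markers, and Socs3, Pim1 and Bcl3 had other orders. The part of those markers in these values was not tested. Bcl3 measured 1.61, 2.97, 0.89 and 4.44 CPM in knockdown replicates 1 to 4, against 0.17, 0.22, 0.62 and 0.045 CPM in scrambled replicates 1 to 4. Pim1 and Bcl3 kept their calls in 5 of the 8 fits without a library, and Fgl2 and Tnfrsf1a only without knockdown replicate 3 (adjusted p up to 0.111).

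Csf3r encodes the receptor of granulocyte colony-stimulating factor, which drives neutrophil production. The gene (ENSMUSG00000028859) lies on chromosome 4 from 126024550 to 126044440 on the plus strand. It measured 16.5, 9.61, 0.79 and 31.4 CPM in knockdown replicates 1 to 4, against 0.22, 1.69, 3.64 and 0.72 CPM in scrambled replicates 1 to 4. In 3 knockdown mice it was above all scrambled mice, and in knockdown replicate 3 it was within the scrambled range. With all libraries the log2 fold change of 3.20 (SE 1.10) had an adjusted p of 0.0833 by edgeR's quasi-likelihood test, and without knockdown replicate 3 it was 3.57 (SE 0.83) with an adjusted p of 0.0221. No other fit that left out a library called Csf3r (adjusted p up to 0.17 by edgeR). By the authors' deposited table the adjusted p was 0.0522.

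The early granulocyte markers differed between libraries in the same order as Csf3r. Their summed level was 1973, 950, 86.7 and 3609 CPM in knockdown replicates 1 to 4, against 35.9, 165, 333 and 84.1 CPM in scrambled replicates 1 to 4. Ranked by either measure, the 8 libraries fell into one and the same order. Of the 7 such markers tested, edgeR called 0 while all 7 were higher at an unadjusted p under 0.05; DESeq2 called 7 and limma-voom 0. For scale, 4508 of the 13462 genes tested had an unadjusted p under 0.05 in either direction. The 10 mature neutrophil markers summed to 7.21, 16.6, 1.02 and 43.3 CPM in knockdown replicates 1 to 4, against 2.75, 2.00, 8.18 and 1.71 CPM in scrambled replicates 1 to 4. They too were highest in knockdown replicate 4 and low in replicate 3, with Lcn2 the most abundant at up to 17.8 CPM, while Ly6g and Retnlg had no read in any knockdown library. Of 4 tested, edgeR called 0, 1 was higher at an unadjusted p under 0.05, DESeq2 called 2 higher and limma-voom 0. The part of the granulocyte genes in the Csf3r values was not tested.

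Csf1r encodes the receptor tyrosine kinase for macrophage colony-stimulating factor and marks the monocytic line. The gene (ENSMUSG00000024621) lies on chromosome 18 from 61100598 to 61132149 on the plus strand. It measured 26.1, 1.95, 0.73 and 17.7 CPM in knockdown replicates 1 to 4, against 0.17, 1.32, 0.94 and 0.50 CPM in scrambled replicates 1 to 4. Knockdown replicates 1 and 4 stood far above any scrambled library, while knockdown replicate 2 was just above them and replicate 3 within their range. The log2 fold change was 3.97 (SE 1.17) with an adjusted p of 0.0552 by edgeR's quasi-likelihood test, and 4.35 (SE 0.94, adjusted p = 0.0181) without knockdown replicate 3. No other fit that left out a library called Csf1r (adjusted p up to 0.122 by edgeR). The authors' deposited table gives a log2 fold change of 0.90 with an adjusted p of 0.0250. DESeq2, run here on the same counts, gave 3.98 (SE 1.12, adjusted p = 0.00376). The deposited fold change is thus far smaller than those of edgeR and DESeq2 here, and may not be the same measure. The cause of that gap was not tested.

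Summed monocyte and macrophage markers measured 189, 34.8, 16.2 and 156 CPM in knockdown replicates 1 to 4, against 8.16, 15.9, 20.02 and 12.1 CPM in scrambled replicates 1 to 4. The same 2 knockdown mice were highest. Of 9 such markers tested 1 was called higher, Klf4, and all 9 were higher at an unadjusted p under 0.05; by DESeq2 9 were called and by limma-voom none. Their part in the Csf1r values was not tested. Exons of Csf1r overlap those of Hmgxb3 on the other strand by 873 bases, and no strand setting is given in the sources used here. Hmgxb3 lay between 85.8 and 104 CPM in all libraries, including scrambled replicate 1, where Csf1r had 6 reads.

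**Figure D3:**
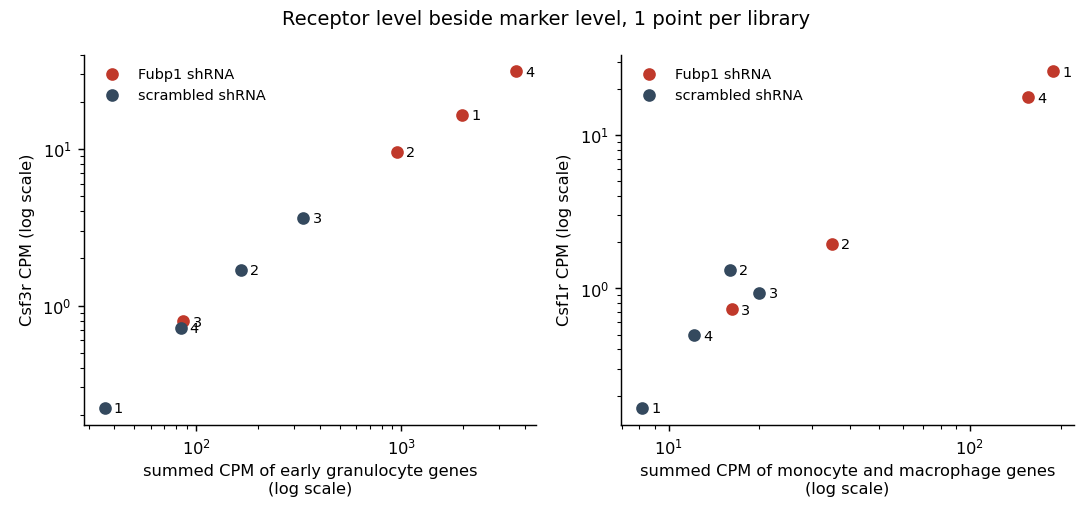
Level of Csf3r against the summed level of early granulocyte genes (left) and of Csf1r against that of monocyte and macrophage genes (right), CPM on log scales, 1 point per library with its replicate number. Knockdown replicates 1 and 4 lie at the upper right of both panels, and knockdown replicate 3 lies among the scrambled libraries.

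Kit and Flt3 encode the receptor tyrosine kinases of stem and progenitor cells, for stem cell factor and FLT3 ligand. Kit (ENSMUSG00000005672, chromosome 5 from 75574916 to 75656722, plus strand) measured 113, 88.9, 53.1 and 60.2 CPM in knockdown replicates 1 to 4, against 77.0, 167, 231 and 95.9 CPM in scrambled replicates 1 to 4. The groups overlapped, with 2 scrambled mice above all knockdown mice and 1 scrambled mouse below 2 of them. The log2 fold change was -0.86 (SE 0.38, adjusted p = 0.158 by edgeR), and it ran from -1.08 to -0.54 with single libraries left out. Flt3 (ENSMUSG00000042817, chromosome 5 from 147330741 to 147400489, minus strand) measured 3.18, 1.49, 0.16 and 24.5 CPM in knockdown replicates 1 to 4, against 0.11, 1.85, 1.64 and 0.045 CPM in scrambled replicates 1 to 4. Knockdown replicate 4 alone was high. The Flt3 difference was 2.99 on the log2 scale (SE 1.49, adjusted p = 0.200) with all libraries and 0.77 (SE 1.19, adjusted p = 0.708) without that mouse. Behind its lowest values stood 5 reads in the knockdown group and 1 read in the scrambled group, so those levels are set by a few molecules. Cd34, a surface marker of progenitors, measured 29.3, 23.6, 1.46 and 105 CPM in knockdown replicates 1 to 4, against 1.78, 14.8, 10.9 and 2.79 CPM in scrambled replicates 1 to 4. It too was highest in knockdown replicate 4, and none of the 7 tested stem and progenitor genes was called by edgeR, limma-voom called none, and 2 were higher at an unadjusted p under 0.05 and by DESeq2.

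**Figure D4:**
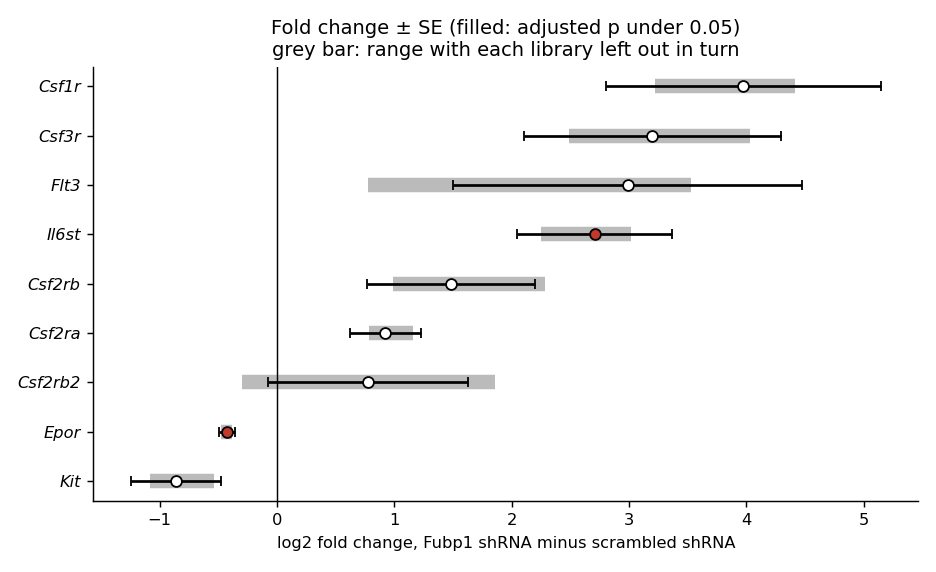
Log2 fold change (Fubp1 shRNA minus scrambled shRNA) of the 9 receptor genes with its standard error; filled points had an adjusted p under 0.05, and grey bars span the values with each library left out in turn. Epor has the smallest error, at -0.42 ± 0.07, and the grey bar of Csf2rb2 crosses 0.

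Csf2rb and Csf2rb2 encode beta chains of the GM-CSF and interleukin-3 receptors. In the mouse, Csf2rb serves the receptors for GM-CSF, interleukin-3 and interleukin-5, and Csf2rb2 serves interleukin-3 alone. Both lie on chromosome 15: Csf2rb (ENSMUSG00000071713) from 78325752 to 78353847 on the plus strand and Csf2rb2 (ENSMUSG00000071714) from 78282507 to 78305721 on the minus strand. Their coding sequences are 92.9% identical over the aligned columns, with a longest identical run of 242 bases. Of all 50-base windows in the Csf2rb coding sequence, 26.0% also occur in that of Csf2rb2, and reads from those could be counted for either gene. The 90-base coding stretch with the most differences, 16, is shown because reads there can be assigned; capitals mark the bases that differ, and the sequences come from GENCODE M21 transcripts.
Csf2rb: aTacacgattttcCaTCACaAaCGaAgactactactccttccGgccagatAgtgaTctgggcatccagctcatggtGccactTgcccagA
Csf2rb2: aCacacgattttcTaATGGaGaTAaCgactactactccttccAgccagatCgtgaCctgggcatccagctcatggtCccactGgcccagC

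Neither beta chain gene passed the test. Csf2rb measured 109, 33.9, 15.3 and 72.4 CPM in knockdown replicates 1 to 4, against 12.02, 9.88, 13.2 and 48.2 CPM in scrambled replicates 1 to 4. Every knockdown library exceeded 3 of the scrambled ones, and scrambled replicate 4 lay above 2 knockdown libraries. Its log2 fold change was 1.48 (SE 0.71, adjusted p = 0.186 by edgeR), and 2.28 (SE 0.64, adjusted p = 0.0599) without scrambled replicate 4. Csf2rb2 measured 93.1, 19.4, 17.7 and 14.2 CPM in knockdown replicates 1 to 4, against 13.4, 7.26, 8.75 and 55.4 CPM in scrambled replicates 1 to 4. A single mouse was far above the rest in each group, so the fitted change of 0.78 (SE 0.85, adjusted p = 0.570) was -0.30 without knockdown replicate 1 and 1.86 without scrambled replicate 4 (adjusted p = 0.827 and 0.135). With the counts of both genes summed into 1, the log2 fold change was 1.17 (SE 0.74, adjusted p = 0.310).

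Of the reads assigned to either beta chain gene, Csf2rb2 took 46.1, 36.4, 53.7 and 16.4% in knockdown replicates 1 to 4, against 52.7, 42.4, 39.9 and 53.5% in scrambled replicates 1 to 4. The share in knockdown replicate 4 (95% exact binomial interval 15.3 to 17.6%, which covers counting error only) was the lowest of all. It averaged 38.1 ± 16.1% in the knockdown and 47.1 ± 6.99% in the scrambled group (SD, n = 4 each), a difference of -9.01 percentage points. That difference was within the spread between mice (exact two-sided permutation p = 0.457, where 70 splits allow at best 0.0286).

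**Figure D5:**
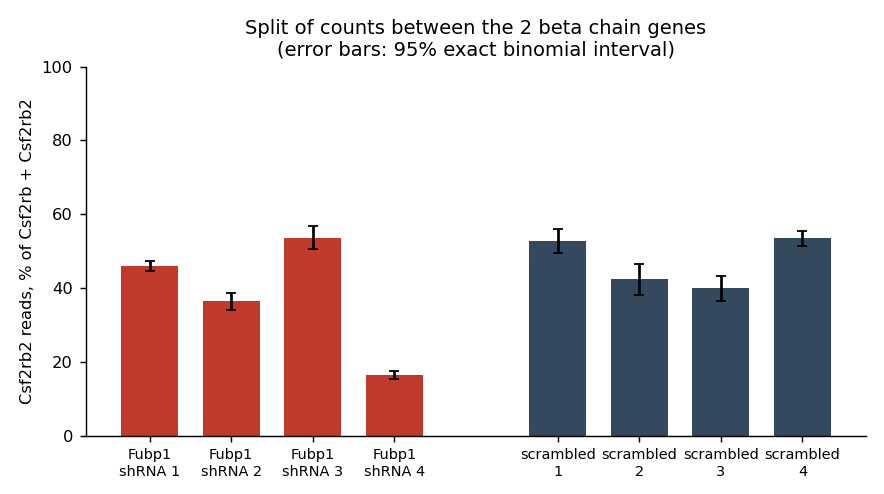
Percentage of the reads assigned to Csf2rb and Csf2rb2 that went to Csf2rb2, 1 bar per library with its 95% exact binomial interval, knockdown libraries left of scrambled ones. The bars lie between 36.4 and 53.7% except that of knockdown replicate 4, at 16.4%.

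Csf2ra encodes the GM-CSF-binding alpha chain that pairs with Csf2rb. The gene (ENSMUSG00000059326) lies on chromosome 19 from 61223957 to 61228429 on the minus strand. It measured 22.97, 17.97, 7.96 and 22.00 CPM in knockdown replicates 1 to 4, against 9.30, 7.63, 11.2 and 9.22 CPM in scrambled replicates 1 to 4. In 3 knockdown mice it was above every scrambled library, and in knockdown replicate 3 it was within the scrambled range. The log2 fold change of 0.93 (SE 0.30) had an adjusted p of 0.0702 by edgeR's quasi-likelihood test; without knockdown replicate 3 it was 1.16 (SE 0.15, adjusted p = 0.00264). No other fit that left out a library called Csf2ra (adjusted p up to 0.169 by edgeR). The authors' deposited table gives a log2 fold change of 0.78 with an adjusted p of 0.0115, where DESeq2, run here on the same counts, gave 0.92. Il3ra, the matching alpha chain for interleukin-3, had the same layout, at 10.6, 9.22, 3.11 and 5.75 CPM in knockdown replicates 1 to 4, against 3.11, 2.68, 3.45 and 3.51 CPM in scrambled replicates 1 to 4 (adjusted p = 0.0517). Il5ra, the alpha chain for interleukin-5, reached at most 0.16 CPM and was not tested.

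Other cytokine receptors, from a list of 37 genes of which 26 were tested, were called higher in 6 and lower in 0 cases. None was lower at an unadjusted p under 0.05, by DESeq2 or by limma-voom. The share called higher, 6 of 26, stands beside the 8.02% of all genes, and the list's median log2 fold change was 0.84. Besides Il6ra and Lifr the 6 were Il9r, Crlf2, Il2rg and Ifngr2. Il2rg, the shared gamma chain that Il9r needs for signalling, rose by 0.54 (SE 0.12) to 15.7 ± 2.25 CPM in the knockdown, against 10.8 ± 0.48 CPM in the scrambled libraries (SD, n = 4 each; adjusted p = 0.0236 by edgeR). Il9r rose by 2.76 (SE 0.48, adjusted p = 0.0115) to 1.44 ± 0.65 CPM, against 0.22 ± 0.11 CPM in the scrambled libraries. Crlf2, the receptor chain for thymic stromal lymphopoietin, measured 15.4, 19.3, 11.8 and 14.2 CPM in knockdown replicates 1 to 4, against 10.1, 7.29, 8.88 and 7.91 CPM in scrambled replicates 1 to 4 (log2 fold change 0.83, SE 0.17, adjusted p = 0.0189). For Il9r, Crlf2, Il2rg, Ifngr2 and Lifr all 4 knockdown libraries, replicate 3 included, were above all scrambled ones, as for 9.54% of all tested genes. No single library decided the Il9r call (adjusted p up to 0.0467), Crlf2 lost its call without scrambled replicate 2 or 3, Il2rg without 5 and Ifngr2 without 6 of the 8 libraries in turn (adjusted p up to 0.0991). Il9r lay near the floor in the scrambled libraries, at 0.083 to 0.36 CPM. Of the whole list 12 of 27 tested were called higher without knockdown replicate 3, where 14.1% of all genes tested were called higher. The number was 3 without knockdown replicate 2 or scrambled replicate 1, 2 without scrambled replicate 2 and 1 without scrambled replicate 3. The shares over all genes in those other fits are not given here.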

How the data were processed

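The authors deposited whole-number read counts per gene for 8 libraries with no normalization, per the file headers. Per the submitters' processing notes CASAVA 1.8 and DESeq2 1.18.1 were used; aligner, counter, strand setting and build: not given in the sources used here. In the same deposited table, the authors' log2 fold changes with standard errors, p-values, test statistic (score) and mean signal are also listed. Columns were matched by the number shared with each sample's description, and 0 were left unmatched; groups come from the titles. Of 47729 genes, 21471 had no counts.

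Genes were kept by filterByExpr (13462 genes), scaled by TMM (factors 0.965 to 1.03) and tested with edgeR 4.0.16 (R 4.3.3) by a robust quasi-likelihood F test, two-sided, with the group as the only term and Benjamini-Hochberg adjustment. The standard error is the fold change divided by the square root of F. Log2 fold changes set the knockdown over the scrambled group. DESeq2 1.42.0, limma 3.58.1 (voom), other scalings and filters, the replicate block and each library left out were alternatives. The procedure was tested on simulated data. Each library is 1 mouse; chi-square per degree of freedom between libraries of a group was at least 11.8, so none was a copy.

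Profiles were compared on log2 CPM (prior count 2) with genes of at least 5 CPM, naming the 3 nearest for each called member, of which 1 is not reported here. Other genes named are list genes with an adjusted p under 0.05, and partners, kinases and ligands of the members; Cd34, Ly6g, Retnlg, Lcn2, Nkg7, Lck, Cd3e, Il3ra, Il5ra, Hmgxb3, Prg2, Epx, Cdh5 and the collagen genes were chosen after their values were seen. The members and lists were chosen with earlier results of these data known. Coordinates and exon lengths come from GENCODE M21 (GRCm38) by Ensembl ID; 7 of 9 members had a RefSeq promoter window.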

Additional observations from a re-analysis of the deposited data

Results flagged for a closer look

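In a group of 4 libraries, 1 library was set apart where its gap to the nearest other library took up a larger part of the group's range than Dixon's 95% critical value allows. Over 27 genes and the beta chain share, 56 groups were examined and 6 stood out. For independent, normally distributed values chance gives about 1 in 20 groups. That rate need not hold here, since the values were untransformed CPM and Csf2rb, Csf2rb2 and their share rest on the same reads. Flt3 in the knockdown group had a ratio of 0.876, with knockdown replicate 4 at 24.5 CPM and the others at 0.16 to 3.18 CPM. Csf2rb2 in the knockdown group had a ratio of 0.934, with knockdown replicate 1 at 93.1 CPM and the others at 14.2 to 19.4 CPM. In the scrambled group Csf2rb2 had a ratio of 0.872 and Csf2rb one of 0.914, both through scrambled replicate 4, at 55.4 and 48.2 CPM against at most 13.4 and 13.2 CPM in the others. Scrambled replicate 4 also set apart Fubp1, with a ratio of 0.894 (396 CPM against 284 to 296 CPM). Stat3 in the scrambled group had a ratio of 0.833, with scrambled replicate 3 at 52.1 CPM and the others at 37.1 to 39.6 CPM.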

How the results depend on the processing

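Over 44 named genes and their alternatives, 465 of 659 values kept their direction and side of the threshold, 185 kept the direction and lost the call, 8 gained it, and 1 reversed: Csf2rb2, at -0.30 without knockdown replicate 1 (1.86 without scrambled replicate 4). Of the 9 receptor genes, the number called higher was 1 with all libraries, 4 with DESeq2 and 0 with limma-voom, beside 8.02%, 12.6% and 6.23% of all genes tested. It was 0 with no low count filter, beside 792 of 26258 genes. It was also 0 with the replicate block, for which the count over all genes follows below. With a library left out it ran from 0 to 4, the 4 without knockdown replicate 3, where 14.1% of all genes were called higher. The number called lower was 1 (Epor) with all libraries, beside 7.29% of all genes tested. It was 0 with the replicate block and stayed 1 with every library left out. Of the other cytokine receptors, 6 were called higher with all libraries and 10 with DESeq2, beside 8.02% and 12.6% of all genes tested. The number was 0 with the replicate block and 1 to 12 with a library left out, the 12 without knockdown replicate 3. The shares over all genes in the other fits without a library are not given here. The difference in beta chain share ran from -14.2 to -1.76 percentage points with a library left out. The cause of these differences was not tested; a fit without a library also has fewer samples.

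Replicate numbers showed no pairing of the libraries: deviations of same-numbered libraries from their group means correlated at -0.42, 0.022, -0.558 and -0.22 for numbers 1 to 4. Differently numbered libraries reached -0.512 and 0.625, so a smaller effect shared by same-numbered libraries could not be seen here. Pairing is therefore not excluded. With the replicate block, 195 genes in all were called higher, against 1080 without it, Il6st had a log2 fold change of 2.28 (adjusted p = 0.156) and Epor -0.43 (adjusted p = 0.0593), both by edgeR. Low counts limit Flt3, Csf1r and Csf3r in the scrambled group, where single libraries held 1 to 16 reads. Il9r and Bcl3 were also near the floor there, at 0.083 to 0.36 CPM and 0.045 to 0.62 CPM. Neither was tested under the filter of at least 1 CPM in 4 libraries.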

Other observations

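Collagen transcripts set knockdown replicate 1 apart, the library with the highest Csf2rb2 and Csf1r levels. Col1a1 measured 332 CPM there, at most 0.20 CPM in the other knockdown libraries and at most 6.86 CPM in the scrambled libraries, and Col1a2 measured 397 CPM, against 12.01 to 41.3 CPM in the other knockdown and 42.2 to 50.9 CPM in the scrambled libraries. Col3a1, which stromal fibroblasts also express, had no read in any knockdown library, and Cdh5, an endothelial gene, had at most 0.022 CPM there. Pecam1, which endothelial cells share with platelets and many leukocytes, went the other way: it measured 32.6, 29.5, 9.33 and 45.3 CPM in knockdown replicates 1 to 4, against 3.89, 5.36, 5.90 and 2.92 CPM in scrambled replicates 1 to 4 (log2 fold change 2.68, adjusted p = 0.0123 by edgeR). Knockdown replicate 1 also held the highest level of the eosinophil granule genes Prg2 (21.2 CPM) and Epx (10.5 CPM). Il5ra was highest there too, but near the floor at 0.16 CPM.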
